A study of Homo sapiens with 7 samples.

Results

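Of the 380 regions of the human genome tested in this reporter assay, 3 lie inside the zinc finger genes ZNF577, ZNF544 and ZNF276, and their constructs are described here site by site. The regions were found by chromosome and end in the construct names of 2 tables of comparisons. They were selected by name from earlier results of the same tables, in which ZNF577 and ZNF276 constructs stood among the most extreme estimates, so those estimates are given as a description and support nothing further. The tables hold 11 of 358 wild-type constructs and 10 of 1025 mutant constructs for the 3 regions, at 12 tested sites, of which 9 appear in both tables.

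C4-2B, the host of the reporters, is an established metastatic prostate cancer cell line. No treatment is named in the labels, and all groups share the same cell line and lentiviral library. The assay read 3 RNA and 3 gDNA libraries, taken 48 hours after transduction, and 1 further library tied barcodes to the cloned sequences. The 3 RNA and 3 gDNA libraries are numbered as replicates, and nothing in the labels says whether they came from separate cultures. The first table set wild-type sequence against scrambled sequence and the second set mutant against wild-type sequence, each with 1 estimate per construct. The estimate is a log odds ratio, taken here as natural log, and it is printed with the standard error it implies. A fold below is a fold of odds, and every interval is a 95% normal interval. A call is an adjusted p under 0.05 as deposited. The threshold was applied here, also where the authors' deposited table is said to call a construct. No read, barcode or replicate value was at hand, so depth is unknown and the errors are those of the authors' model.

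A reporter of this kind asks whether a stretch of DNA, taken out of its place and put into a reporter, raises or lowers transcription of a barcode. A wild-type sequence below scrambled sequence gives less transcript than the control sequence in the same vector. The labels do not say whether each wild-type construct had a scrambled control of its own. A mutation may remove or create a binding site and so move the reporter either way. Zinc finger proteins of the C2H2 class bind DNA through repeated fingers that each hold a zinc ion. ZNF577 and ZNF544 belong to the large class with a KRAB domain, which recruits the corepressor TRIM28 and silences retroelements, and whose genes are clustered on chromosome 19. ZNF276 carries a zinc finger associated domain at its N terminus, and its end overlaps that of the DNA repair gene FANCA.

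Each label was held against gene coordinates of the same build, GRCh38.p14. The ZNF577 region, chr19:51860243-51863236 in hg38, spans 2994 bp inside a gene at 51804442 to 51887951 on the minus strand. It lies 24715 bp downstream of the gene's start site, and 1578 bp of it overlap the pseudogene LOC100419706, which covers 3 of its 4 tested sites. The ZNF544 region, chr19:58261635-58262753, spans 1119 bp inside a gene at 58228914 to 58277455 on the plus strand. It lies 32721 bp downstream of the start site, and all 1119 bp also fall inside the long non-coding RNA gene ZNF8-DT. The ZNF276 region, chr16:89724786-89725970, spans 1185 bp inside a gene at 89720368 to 89740925 on the plus strand. It lies 3784 and 3249 bp downstream of the gene's 2 listed start sites. None of the regions therefore holds a listed start site of its own gene. Exons and introns were not resolved here. Sites are numbered in the order of their chromosome coordinate, and only the kind of each mutation is given.

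Over the 3 loci, the authors' deposited table called 5 of 11 wild-type constructs (45.5%), against 62.3% of all 358. Of these, 2 were higher and 3 lower, where the whole table had 34.1% higher and 28.2% lower calls. Among mutants, the authors' deposited table called 6 of 10, against 56.6% of all 1025, with 5 higher and 1 lower where the whole table gave 29.5% and 27.1%. The share of called mutants was thus near that of the whole table and the share of called wild-type constructs below it, and the regions were chosen with the calls in view. The median estimate of the loci was -0.09 for wild-type constructs and 0.52 for mutants, against 0.01 and 0.02 over the whole tables. With z divided by its robust SD over the table, 4.12 for wild-type constructs and 3.92 for mutants, 0 of the 11 and 0 of the 10 were called, and 4 and 2 constructs over the whole tables.

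At ZNF577 the 4 wild-type constructs fell on both sides of scrambled sequence. The authors' deposited table put site 1, tested with a deletion of 1 base, at -0.10 ± 0.11, an uncalled estimate (adjusted p = 0.460). Site 2 lay 1162 bp further on, and the authors' deposited table called its wild-type construct higher at 0.79 ± 0.20, or 2.20-fold (adjusted p = 0.000206). Only 53 bp beyond it, the wild-type construct of site 3 was called lower at -2.79 ± 0.55, or 16.3-fold, the third lowest called estimate of the authors' deposited table (adjusted p = 2.46e-06). Site 4 lay another 24 bp on, and the authors' deposited table called it lower at -0.87 ± 0.12, or 2.38-fold (adjusted p = 9.03e-12). Within 77 bp of this locus the wild-type estimate thus covered a range of 3.58, from the highest to the lowest of the 3 loci. Constructs of sites 3 and 4 differed by 1.92 in the authors' deposited table, with an interval of 0.81 to 3.03 if their errors are independent.

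At ZNF577, 1 of 3 mutants was called, where 56.6% of all mutants in the whole table were. The T-to-C mutant of site 3 was called higher than wild-type at 2.87 ± 0.61, or 17.7-fold, the sixth highest called estimate of the authors' deposited table. For the T-to-C mutant of site 4, 24 bp away, the authors' deposited table gave 0.18 ± 0.11, without a call (adjusted p = 0.144). The 1-base deletion of site 1 was likewise not called, with 0.15 ± 0.13 from the authors' deposited table (adjusted p = 0.305). The same kind of substitution at neighbouring sites thus differed by 2.70 in the authors' deposited table (interval 1.48 to 3.92, errors taken as independent). The wild-type construct of site 2, tested with a deletion of 3 bases, has no mutant counterpart here.

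At ZNF544 none of the 3 wild-type constructs was called against scrambled sequence. Their estimates in the authors' deposited table were all above 0, at 0.12 ± 0.31 for site 1, 0.39 ± 0.20 for site 2 and 0.33 ± 0.29 for site 4 (adjusted p = 0.762, 0.0816 and 0.316). The widest gap between these constructs was 0.27, with an interval of -0.46 to 1.00, so the sites are not shown to act alike. Site 3 has no wild-type estimate here. The interval of site 2 ran from -0.01 to 0.78 and that of site 1 from -0.49 to 0.73.

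At ZNF544, the call placed 3 of 4 mutants above wild-type and left the other uncalled. Over the whole mutant table the share of higher calls was 29.5% and that of calls either way 56.6%. With only 4 mutants, the locus cannot be told apart from these shares. The authors' deposited table gave 1.01 ± 0.30 for site 1, an A-to-T change, or 2.75-fold (adjusted p = 0.00169). An A-to-G change at site 2 had 0.79 ± 0.20, or 2.20-fold, as the authors' deposited table gives it (adjusted p = 0.00024). For site 3, an A-to-G change 29 bp from site 2, the authors' deposited table gave 1.25 ± 0.37, or 3.49-fold (adjusted p = 0.00188). The called mutants were not separated from each other beyond their errors, the widest gap being 0.46 between sites 2 and 3 (interval -0.37 to 1.28). For site 4, a G-to-A change 336 bp beyond site 3, the authors' deposited table gave 0.25 ± 0.23, without a call (adjusted p = 0.369). It lay below site 3 by 1.00 (interval 0.14 to 1.86) and below site 1 by 0.76 (interval from 0.02 up), while its gap to site 2 had an interval that held 0. Bonferroni adjustment over the whole mutant table ended the higher calls of this locus, with adjusted p from 0.0767 to 0.758.

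At ZNF276 the wild-type constructs again split, with 1 called higher, 1 lower and 2 neither. The authors' deposited table put site 1, where a C-to-T change was tested, at -0.14 ± 0.09, without a call (adjusted p = 0.151). Site 2, 202 bp on, was called higher in the authors' deposited table, with 0.37 ± 0.10, or 1.44-fold (adjusted p = 0.000394). Only 11 bp further, site 3 had -0.09 ± 0.07 and no call in the authors' deposited table (adjusted p = 0.297). The small step between these neighbours, 0.46, had an interval of 0.22 to 0.69. Site 4, 55 bp beyond site 3, was called lower at -1.96 ± 0.34, or 7.08-fold, the sixth lowest called estimate of the authors' deposited table. Sites 1, 2 and 3 thus lay within 0.51 of each other and site 4 at least 1.82 below each of them.

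Of the 3 ZNF276 mutants, 1 was called higher, 1 lower and 1 neither, and site 1 has no mutant estimate here. For the T-to-C mutant of site 2 the authors' deposited table gave -0.05 ± 0.11, without a call (adjusted p = 0.757). The A-to-T mutant of site 3 was called lower, and the authors' deposited table gave it -0.43 ± 0.10, or 1.54-fold below wild-type (adjusted p = 9.6e-05). It was the only lower call among the mutants of the 3 loci. The T-to-C mutant of site 4 was called higher, and the authors' deposited table gave it 2.06 ± 0.36, or 7.82-fold, rank 15 from the top among called mutants. Site 3 lay below site 2 by 0.39 (interval 0.09 to 0.68), and site 4 above site 2 by 2.10 (1.37 to 2.84).

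**Figure D1:**
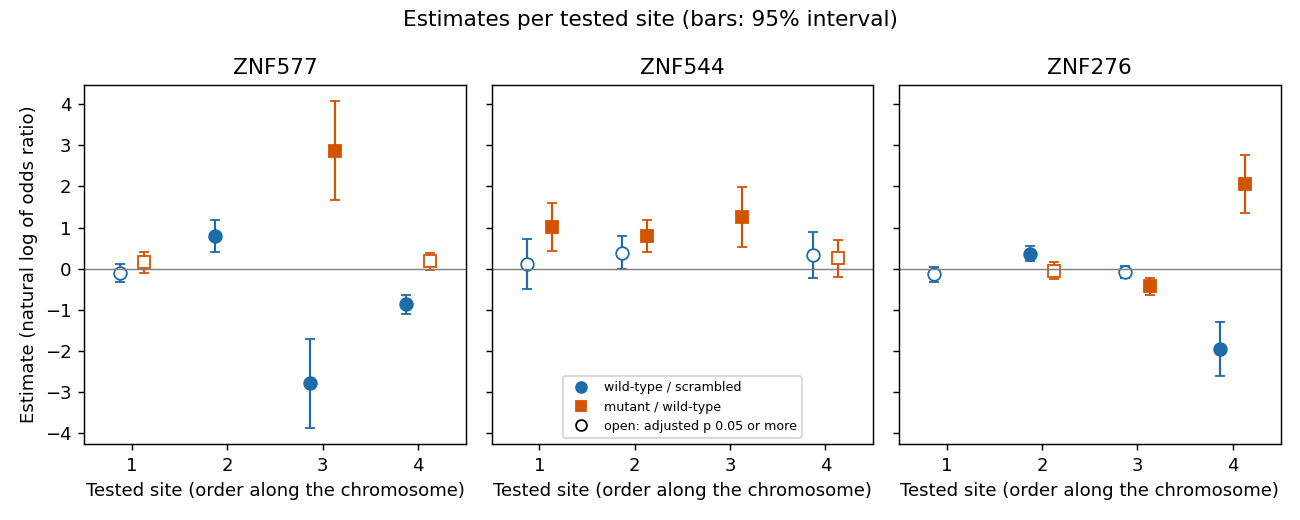
Estimate per tested site (natural log of the odds ratio) at ZNF577, ZNF544 and ZNF276, with sites in chromosome order. Circles are wild-type against scrambled sequence, squares are mutant against wild-type, bars are 95% intervals and open symbols were not called. The lowest circles, -2.79 at ZNF577 site 3 and -1.96 at ZNF276 site 4, stand at the same sites as the highest squares, 2.87 and 2.06, and every ZNF544 estimate lies above 0.

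The sites with the lowest wild-type construct at ZNF577 and ZNF276 were also those with the highest mutant. Both comparisons use wild-type reads, assumed here to be from one and the same construct, so a low wild-type value lowers the first estimate and raises the second. Whether this shared term produced the pattern was not tested. Adding the paired estimates leaves the wild-type term out and sets the mutant against scrambled sequence. At ZNF577 site 3 that sum was 0.08 (interval -1.54 to 1.70), and at ZNF276 site 4 it was 0.10 (-0.87 to 1.06). These intervals hold 0 but are too wide to place the mutants near scrambled sequence. They treat the paired errors as independent and are too wide where the wild-type reads are shared. On the other hand, every interval given here rests on the deposited errors. The robust SD of z was 4.12 for wild-type constructs and 3.92 for mutants, and no interval was widened for it. Whether the deposited errors are too small was not tested. If they are, intervals of single constructs, sums and differences may all be too narrow, also where they leave out 0.

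The sums at the other sites placed mutants on both sides of scrambled sequence. The ZNF544 mutants of sites 1 and 2 summed to 1.13 (0.29 to 1.97) and 1.18 (0.62 to 1.73), above scrambled sequence, and that of site 4 to 0.58 (-0.15 to 1.31). At ZNF577 the mutant of site 4 summed to -0.69 (-1.01 to -0.37), still below scrambled sequence, and that of site 1 to 0.06 (-0.28 to 0.39). At ZNF276 the mutant of site 3 summed to -0.52 (-0.77 to -0.27), whereas its wild-type construct was not called. The mutant of ZNF276 site 2 summed to 0.32 (0.03 to 0.61), close to its wild-type construct at 0.37.

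**Figure D2:**
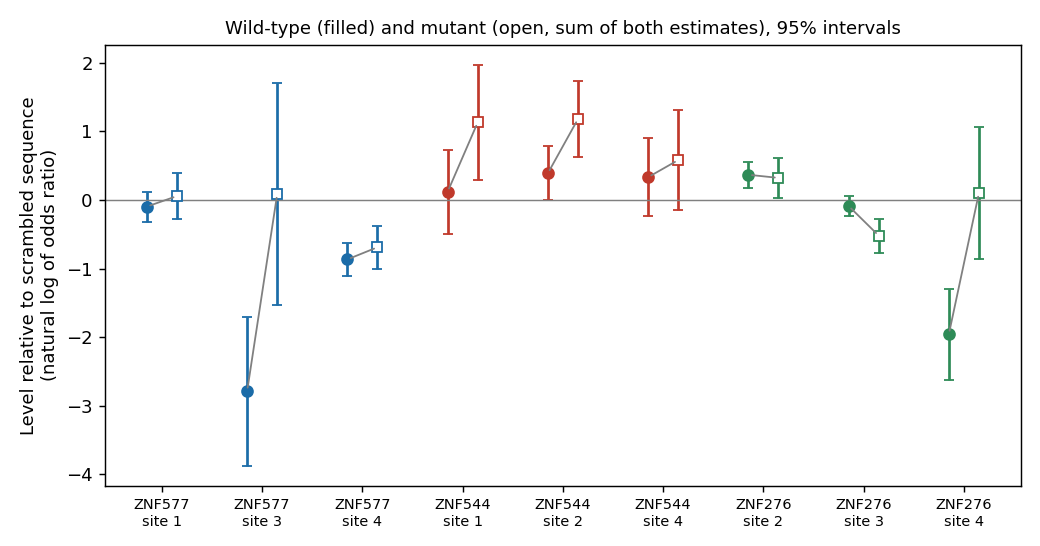
Level relative to scrambled sequence (natural log of the odds ratio) at the 9 sites present in both tables. Filled circles are wild-type constructs, open squares are mutants as the sum of both estimates, lines join the same site and bars are 95% intervals with paired errors taken as independent. The ZNF577 site 3 and ZNF276 site 4 lines end at 0.08 and 0.10, and those of ZNF544 sites 1 and 2 end at 1.13 and 1.18.

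In order of their estimates, the wild-type constructs ran from -2.79 to 0.79. ZNF577 site 3 and ZNF276 site 4, the lowest, were not separated beyond their errors (0.83, interval -0.44 to 2.10). ZNF577 site 4 stood above ZNF276 site 4 by 1.09 (0.39 to 1.80), and the next construct, ZNF276 site 1, above it by 0.73 (0.43 to 1.02). From there up to ZNF577 site 2 no neighbours in the order differed beyond their errors, although constructs further apart did, such as ZNF577 site 2 above site 1 by 0.89 (0.44 to 1.33) and ZNF276 site 2 above site 1 by 0.51 (0.25 to 0.76). Among mutants, ZNF276 site 3 stood below its neighbour in the order, and no other neighbours up to ZNF577 site 3 differed beyond their errors.

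The spread between sites is given as a description, because the wide ranges of ZNF577 and ZNF276 rest on site 3 and site 4, the extreme values for which these regions were selected. Among 60 regions with at least 3 wild-type constructs, and leaving out unbounded fits, the range of estimates at ZNF577 was the fourth widest in the authors' deposited table, at 3.58, against a median of 1.15. ZNF276 ranked 15 of 60 with 2.33, and ZNF544 ranked 58 of 60 with 0.27. The ranks are not matched for the number of constructs, with which a range tends to grow. ZNF544 had 3 wild-type constructs, and ZNF577 and ZNF276 had 4 each. All 6 pairs of wild-type sites at ZNF577 and 5 of 6 at ZNF276 had an interval of the difference without 0, and 0 of 3 pairs at ZNF544 did. No share of such pairs over all regions was computed, so these counts have no background. Many of the ZNF577 and ZNF276 pairs include site 3 or site 4, the sites for which these regions were selected. Among 145 regions with at least 3 mutants, ZNF577, ZNF276 and ZNF544 ranked 11, 18 and 75, with ranges of 2.72, 2.49 and 1.00 against a median of 1.02. As background, the 104 pairs of wild-type sites of 1 region within 25 bp had a median absolute difference of 0.46 (upper quartile 0.94). For the 278 wild-type pairs within 100 bp it was 0.39 (upper quartile 0.85). For the 330 mutant pairs within 25 bp it was 0.45 (upper quartile 0.84). No more is read from the steps at these loci, since the sites were known to be extreme.

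The estimates at ZNF577 site 3 and ZNF276 site 4 had errors well above the table medians. The standard error of the wild-type construct was 0.55 at ZNF577 site 3 and 0.34 at ZNF276 site 4, against a table median of 0.11, and 95.5% and 88.5% of the wild-type table had a smaller one. For the mutants of these sites the errors were 0.61 and 0.36 against a median of 0.12, and 97.1% and 91.6% of the mutant table had a smaller one. ZNF544 also had wide errors, from 0.20 to 0.31 for wild-type constructs and from 0.20 to 0.37 for mutants. By contrast, ZNF577 site 4 was called lower with an error of 0.12, close to the table median. The part of the precision in these results was not tested.

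**Figure D3:**
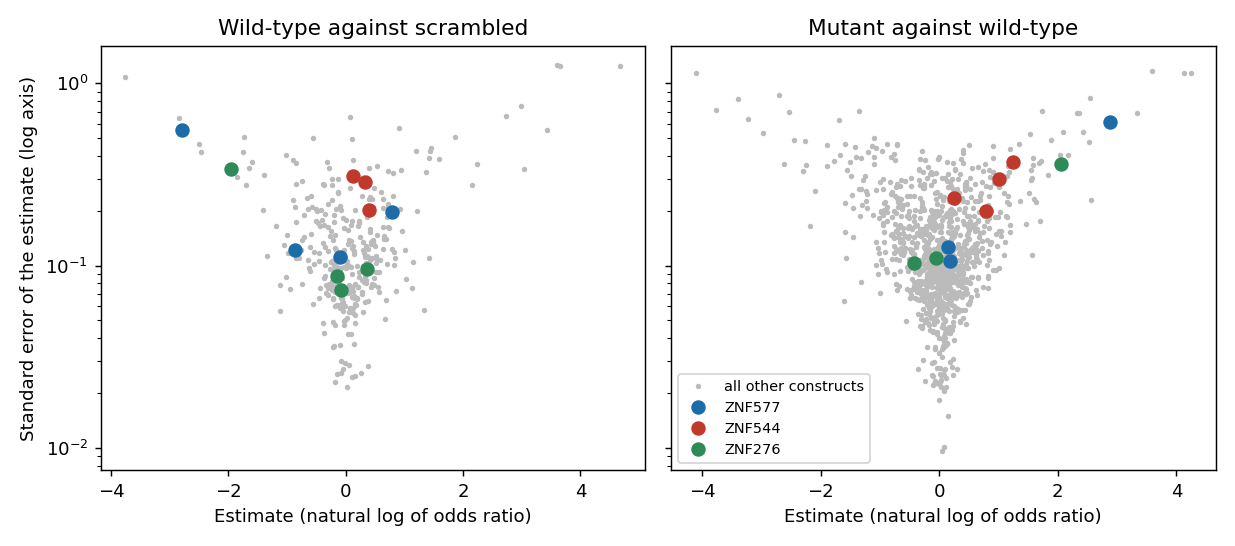
Standard error (log axis) against estimate (natural log of the odds ratio) for the constructs of both tables, with the 3 loci in colour and 5 wild-type and 13 mutant constructs with unbounded fits left out. ZNF577 site 3 and ZNF276 site 4 lie far to the left among wild-type constructs and far to the right among mutants, at errors of 0.34 to 0.61. The ZNF544 points all have errors of about 0.20 or more.

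Among mutants with the same kind of change, the T-to-C ones were called at some of these sites and not at others. Of the 4 T-to-C mutants, 2 were called higher, 1 each at ZNF577 and ZNF276, and the other 2 stood at 0.18 and -0.05. The authors' deposited table called 80 of all its 142 T-to-C mutants, 47 higher and 33 lower, and their median estimate was 0.06. Both A-to-G mutants, at ZNF544, were called higher, while the 180 A-to-G mutants of the table gave 52 higher and 53 lower calls. The 2 A-to-T mutants went opposite ways, higher at ZNF544 and lower at ZNF276, while the 27 A-to-T mutants of the table gave 7 higher and 10 lower calls.

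Another 8 regions lay inside or nearest to other genes with zinc finger family symbols, with 19 mutant and 5 wild-type constructs. The authors' deposited table called 12 of those mutants, 7 higher and 5 lower, or 63.2% against 56.6% of the whole table, with a median estimate of 0.05. The called ones ran from -3.22 at the region nearest ZNF366, 116558 bp away, to 0.95 at ZNF556, another C2H2 zinc finger gene. All 5 wild-type constructs lay in the ZNF556 region, where 1 was called higher at 0.93 ± 0.20 and 1 lower at -0.60 ± 0.15 in the authors' deposited table, a share of calls of 40.0% against 62.3% of all wild-type constructs. Constructs of ZNF556 thus also stood on both sides of scrambled sequence. At ZNF528, 3 of 8 mutants were called higher and 1 lower. Apart from ZNF528 and ZNF556, each region of this group held only 1 mutant, so calls per region cannot be compared.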

How the data were processed

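The analysis began from 2 tables of comparisons made by the authors. The deposited estimate was read as a natural log odds ratio of a logit model. The headers name a logit for z, p and q but state no scale for the estimate. The deposited z value is a score, and a p-value and q-value were deposited by the authors beside it. Recomputed with scipy 1.17.1, the p-value matched a two-sided normal test of z, and the q-value matched a Benjamini-Hochberg adjustment within each table. Direction was read from the table names. Bowtie2 and hg38 are listed by the submitters' processing notes, with no role, and further steps are not stated in those sources. The standard error is the estimate over z. Starts were raised by 1 base to count from 1. Genes and start sites come from RefSeq tables of GRCh38.p14. No sequence of the tested regions was used here, so none is printed.

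Every construct of the 3 regions was named. The members, the family list (symbols starting ZNF, ZSCAN, ZKSCAN, ZBTB, ZFP, ZIM or ZIK) and the alternatives were chosen with earlier results of these data known. Adjustments cover whole tables. The adjustment code was tested on simulated data. Alternatives were Bonferroni adjustment, a threshold of 0.01, z divided by its robust SD, unbounded fits (estimates beyond 10 in size) left out, and a minimum of 1.5-fold odds.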

Additional observations from a re-analysis of the deposited data

How the results depend on the processing

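No paired analysis was possible because the tables combine the replicates and carry no value for any of them, and for the same reason no replicate could be left out. A threshold of 0.01 and leaving out unbounded fits changed no call among the 21 constructs. A minimum of 1.5-fold odds ended 1 call, the wild-type construct of ZNF276 site 2. Bonferroni adjustment took the mutant calls from 6 to 3 by ending those of ZNF544 sites 1, 2 and 3, and ended no wild-type call of the 3 loci. The z values had a robust SD of 4.12 for wild-type constructs and 3.92 for mutants, where that of a standard normal z is 1. Divided by it, z left 0 calls among wild-type constructs and 0 among mutants of these loci (at an unadjusted p under 0.05 as deposited there were 5 and 6), and 4 and 2 calls over the whole tables. For the 11 constructs of these loci that were called as deposited, the adjusted p then ran from 0.916 to 0.974. No estimate changed sign, since the alternatives alter only the call. The depth behind each construct is unknown.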
